A study of Homo sapiens with 4 samples.

Results

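The genes described here are 58 genes of the G2 phase and mitosis, taken by gene symbol from a list of mitotic cyclins, kinases, kinetochore and spindle checkpoint proteins, kinesins, cytokinesis factors and condensins. All 58 were among the 25343 gene symbols measured. RNA was sequenced from 4 cultures of human hepatocellular carcinoma lines, with 1 library for each of 4 groups. Huh7 and PLC/PRF/5 cells each carried a lentivirus, with either a hairpin RNA that targets SCD1 (gene symbol SCD, an enzyme that puts a double bond into saturated fatty acids) or a non-target control (vector control). All 4 cultures were stably transduced, selected with puromycin and grown in the same serum-containing medium. The labels name a single hairpin, so its effects on other transcripts cannot be told apart from those of SCD loss.

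Cells build up the transcripts of mitotic genes late in the cycle. FOXM1, B-MYB (MYBL2) and the MuvB complex switch them on, and the DREAM complex holds them down in resting cells. DREAM acts partly through a short promoter element called the CHR. Many of these promoters also hold CCAAT boxes, which are bound by NF-Y. Their proteins drive entry into mitosis (cyclin B with CDK1), hold anaphase back until chromosomes are attached (the spindle checkpoint) and then release it through the anaphase-promoting complex, a ubiquitin ligase. In hepatocellular carcinoma these genes are read as a measure of proliferation.

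Values are TPM, a length-corrected share of each library's transcripts that does not keep sequencing depth, so depth is unknown. SCD itself stood at 1755 TPM (control) and 137 TPM (knockdown) in Huh7, against 1111 and 178 TPM in PLC/PRF/5. The liver transcription factor gene HNF4A stood between 122 and 192 TPM in the 4 libraries. Of 10 liver markers, HNF4A among them, 8 passed as higher in Huh7 in the limma line comparison described below (28.3% of all genes). Only APOB passed as higher in PLC/PRF/5 (31.5% of all genes). ALB was at 6498 TPM (control) and 10479 TPM (knockdown) in Huh7, against 69.3 and 41.5 TPM in PLC/PRF/5. AFP was at 15421 and 10302 TPM in Huh7, against 17.2 and 6.96 TPM in PLC/PRF/5. TTR was between 312 and 371 TPM in Huh7 but at 0.41 and 0.16 TPM in PLC/PRF/5. APOB was at 1165 TPM (control) and 797 TPM (knockdown) in Huh7, against 1780 and 1485 TPM in PLC/PRF/5. Summed over 5 markers each, leukocyte markers came to 11.7 to 27.4 TPM, of which CD68 made up most, and endothelial markers to 1.5 to 3.40 TPM. Fibroblast markers came to 45.0 TPM (control) and 17.5 TPM (knockdown) in Huh7 and to 1.61 to 3.10 TPM in PLC/PRF/5. The defining leukocyte gene PTPRC was below 1 TPM in every library, and KDR, TEK and ACTA2 were listed at 0 throughout. The part of the Huh7 fibroblast marker difference in the results was not tested.

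Many of these genes have sequences in their promoters that match the elements named above. RefSeq promoter windows of GRCh38.p14, 250 bases before to 50 bases after each annotated start, were on hand for 49 of the 58 genes. The CHR motif TTTGAA, searched on both strands, was present in 35 of these 49 genes (71.4%), against 14.0% of the 10105 genes that were expressed here and had a window. It lay whole within 50 bases of the start in 29 genes (59.2%), against 4.44%. CCAAT, also on both strands, was present in 37 genes (75.5%), against 43.4%, and 2 CCAAT boxes that began 31 to 34 bases apart were present in 7 (14.3%), against 2.29%. Of 29 genes of G1/S and DNA replication with a window, 1 held TTTGAA and 19 held CCAAT. In 2 of the 49 genes (4.08%) a TTTGAA overlapped a CCAAT, against 0.0891% of the expressed genes with a window. The variant TTCGAA was found in 5 genes (10.2%), against 2.31%. These matches are letters in a window and were not tested as binding sites.

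The 250 bases before the start are shown for the 4 genes with both motifs there and the largest mean difference between knockdown and control, and for KIF18A, the gene with both motifs whose mean difference was highest. Each runs 5′ to 3′ on the strand of the gene, with CHR and CCAAT matches in capitals (TTCAAA and ATTGG are the same motifs on the other strand). TOP2A lies at chr17:40417897-40418146 on the minus strand, CDC20 at chr1:43358731-43358980 on the plus strand, CCNB2 at chr15:59104896-59105145 on the plus strand, NCAPD2 at chr12:6493852-6494101 on the plus strand and KIF18A at chr11:28108157-28108406 on the minus strand.
TOP2A: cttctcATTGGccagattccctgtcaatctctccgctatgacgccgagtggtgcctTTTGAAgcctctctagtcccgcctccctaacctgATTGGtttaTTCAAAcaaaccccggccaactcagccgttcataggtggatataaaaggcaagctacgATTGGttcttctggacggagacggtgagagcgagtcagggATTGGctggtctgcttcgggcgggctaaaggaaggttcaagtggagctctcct
CDC20: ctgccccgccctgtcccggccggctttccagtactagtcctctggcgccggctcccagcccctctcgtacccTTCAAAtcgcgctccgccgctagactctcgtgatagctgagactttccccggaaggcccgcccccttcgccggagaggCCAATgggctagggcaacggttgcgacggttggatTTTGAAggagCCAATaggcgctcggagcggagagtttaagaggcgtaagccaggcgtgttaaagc
CCNB2: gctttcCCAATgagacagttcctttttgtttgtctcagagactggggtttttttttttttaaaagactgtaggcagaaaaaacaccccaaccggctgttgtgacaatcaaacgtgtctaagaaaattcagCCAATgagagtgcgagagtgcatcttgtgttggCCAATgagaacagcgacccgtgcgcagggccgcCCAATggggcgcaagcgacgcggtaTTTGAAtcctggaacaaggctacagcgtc
NCAPD2: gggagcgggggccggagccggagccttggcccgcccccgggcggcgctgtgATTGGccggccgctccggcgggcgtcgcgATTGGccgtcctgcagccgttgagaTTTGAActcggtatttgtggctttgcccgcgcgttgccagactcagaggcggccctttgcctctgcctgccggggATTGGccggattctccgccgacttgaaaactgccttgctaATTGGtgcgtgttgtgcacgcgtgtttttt
KIF18A: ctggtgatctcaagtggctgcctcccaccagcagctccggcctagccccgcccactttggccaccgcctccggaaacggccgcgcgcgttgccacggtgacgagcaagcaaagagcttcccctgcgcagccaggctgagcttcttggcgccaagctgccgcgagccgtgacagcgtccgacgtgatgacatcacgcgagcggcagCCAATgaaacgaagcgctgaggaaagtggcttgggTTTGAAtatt

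In CCNB2 the CHR match began 29 bases before the start, and 4 CCAAT boxes began 54, 87, 120 and 244 bases before it. In CDC20 CHR matches began at 65 and 178 bases and CCAAT boxes at 55 and 100 bases. KIF18A, whose knockdown difference lay at the other end of the range, had a CHR match at 10 bases and a CCAAT box at 45 bases. Across the 26 genes with both motifs in 1 window, the mean log2 fold change ran from -0.64 (TOP2A) to 0.19 (KIF18A). Their medians were -0.26 (Huh7) and -0.13 (PLC/PRF/5), beside -0.25 and -0.08 in the 23 genes without the pair.

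All 58 genes were well expressed, from 10.5 TPM (KIF15 in the PLC/PRF/5 knockdown) to 562.5 TPM (UBE2S in the Huh7 control), so none was lost to the filter on low values. Summed over the 58, they came to 7176 TPM (control) and 6201 TPM (knockdown) in Huh7, a difference of -13.6%. In PLC/PRF/5 the sums were 6559 and 5882 TPM, a difference of -10.3%. In bulk RNA, fewer cells in G2 and mitosis and less RNA per such cell cannot be told apart.

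Most of the genes were modestly lower in the knockdown libraries, and none differed 2-fold. Log2 fold changes here are log2((knockdown TPM + 1)/(control TPM + 1)). In Huh7, 50 of 58 were below 0, where 39.7% of all 13485 genes considered were, and 8 were above it (background 60.2%), and the median was -0.22 beside 0.08 for all genes. In PLC/PRF/5, 42 of 58 were below 0, where 36.5% of 13057 genes were, and 16 were above it (background 63.4%), and the median was -0.10 beside 0.10. A total of 37 genes were lower in both lines (63.8%, against a background of 22.4% of 12064 genes), 3 were higher in both (background 46.5%) and 18 had opposite signs (background 31%). Among the 7854 genes that, like all 58, had at least 10 TPM in every library, 23.7% were lower and 46% higher in both.

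With a size rule of 0.32 on the log2 scale (knockdown 25% above or 20% below control), 17 genes were lower and 1 higher in Huh7, where 11.7% of all genes were lower and 23.6% higher. In PLC/PRF/5, 4 were lower and 2 higher, where 9.84% were lower and 24.4% higher. These 4 (TOP2A, PTTG1, CDC20 and AURKB) were also past the rule in Huh7, so 4 of 58 were past it downward in both lines, against 3.84% of all genes, and none upward, against 10.1%. Among genes with at least 10 TPM throughout, 7.68% were past the rule downward in Huh7 and 7.05% in PLC/PRF/5, with 3.06% downward and 7.38% upward in both. At 2-fold, 1.54% of all genes were lower and 3.1% higher in Huh7, and in PLC/PRF/5 1.12% lower and 1.72% higher. Each arm of a line is a single library, so these counts have no replicate check. TPM scaling affects them: median-ratio scaling, which divides every library by its median ratio to an average library, shifted the median of all genes by -0.08 in Huh7 and -0.10 in PLC/PRF/5. With that scaling, 28 genes were lower and none higher in Huh7, and 17 lower and none higher in PLC/PRF/5. Of all genes, 15.8% were then lower and 18.2% higher in Huh7, and 14.9% and 16.5% in PLC/PRF/5. Under it 49 genes were lower in both lines, against 34.2% of all genes, and none was higher in both.

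**Figure D1:**
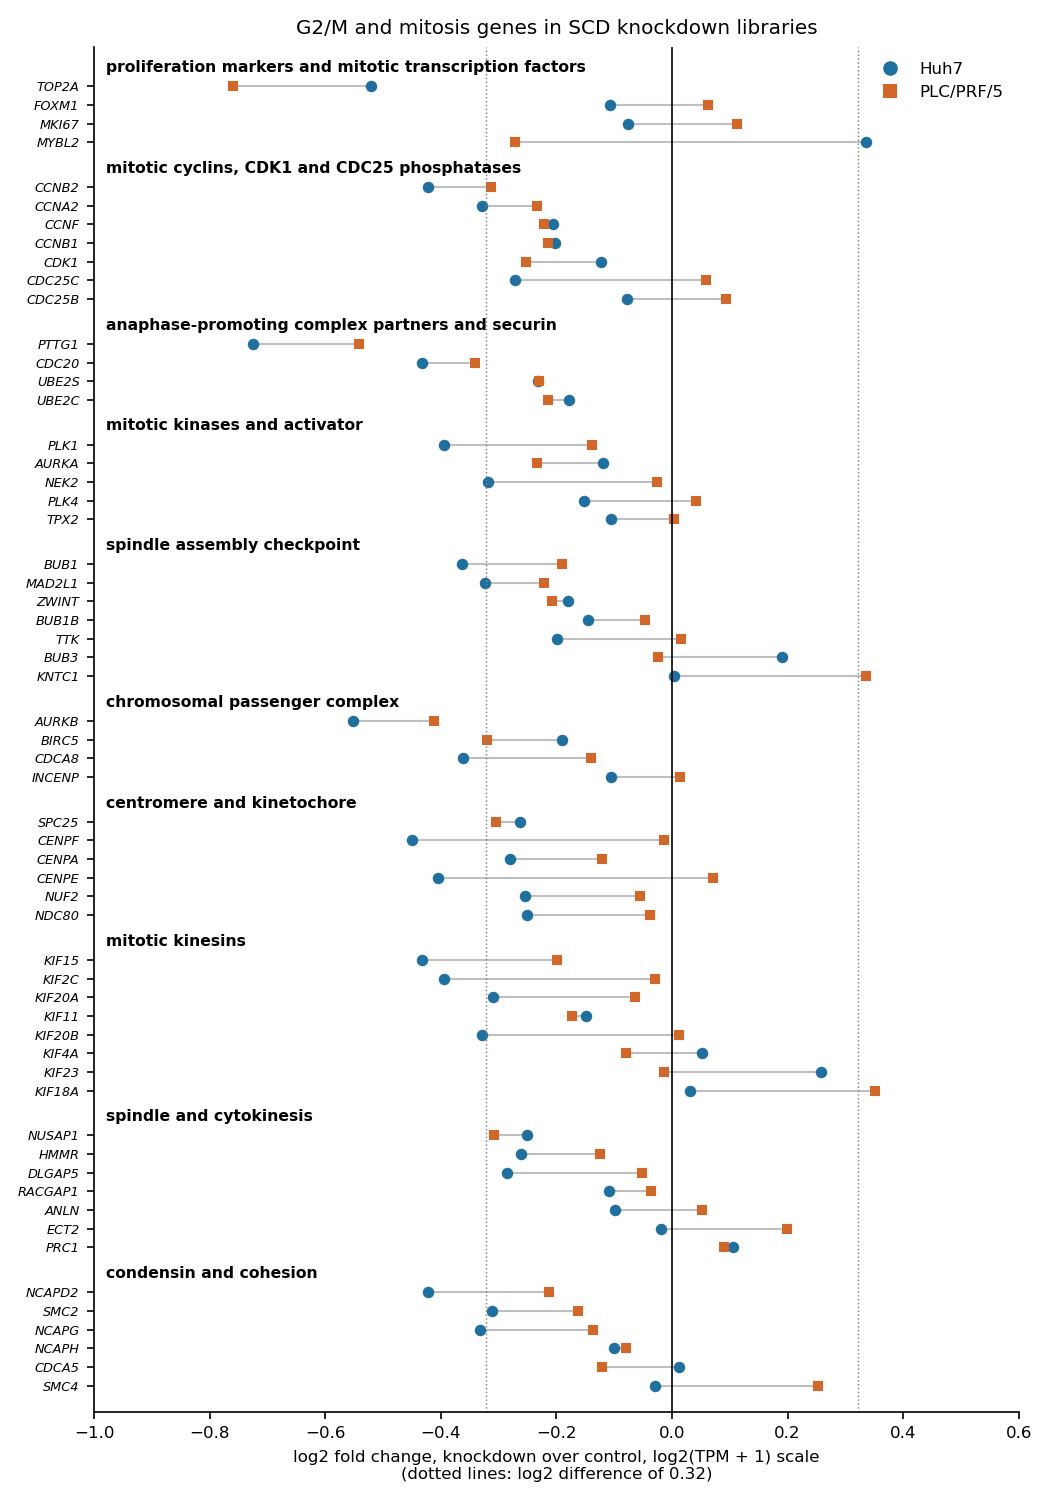
Log2 fold change of knockdown over control on the log2(TPM + 1) scale (horizontal axis) for each of the 58 genes, grouped by role, with Huh7 as circles and PLC/PRF/5 as squares, 1 library per arm. Of 58 genes, 37 have both points left of 0 and 3 have both right of it, and with median-ratio scaling these counts were 49 and 0.

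The 2 lines are the only replication of the knockdown. A limma fit on log2(TPM + 1) over all 13813 genes, with cell line as a block, called none of the 58 in either direction at an adjusted p under 0.05, where 0.00724% of all genes were called lower and 0% higher. The smallest adjusted p among the 58 was 0.132, for PTTG1, and SCD itself, with a mean log2 fold change of -3.15 (SE 0.25), had an adjusted p of 0.128. At an unadjusted p under 0.05 in the same limma fit, 13 of the 58 were lower (background 5.24%) and none higher (background 12.7%). Among genes with at least 10 TPM throughout, 6.32% were lower and 14.6% higher by that rule. With median-ratio scaling the shares of all genes were 9.22% lower and 7.75% higher, and 33.2% were higher in both lines. The 13 were TOP2A, PTTG1, AURKB, CDC20, CCNB2, NCAPD2, SPC25, CCNA2, NUSAP1, BUB1, MAD2L1, BIRC5 and UBE2S. This count was 25 with median-ratio scaling, 5 without the variance trend and 0 without the cell line term. The fit has 1 residual degree of freedom against 3.71 prior ones. Its p-values weigh the mean difference against a variance taken partly from how alike the 2 lines differed. The larger weight in that variance is on a trend over all genes.

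On TPM as deposited, proliferation markers did not share a direction. TOP2A, the topoisomerase that untangles chromosomes before they part, stood at 370.3 TPM (control) and 258 TPM (knockdown) in Huh7, against 178 and 105 TPM in PLC/PRF/5. Both knockdown libraries were below their controls, 1.43-fold and 1.69-fold, and the mean log2 fold change was -0.64 with a standard error of 0.10 (limma adjusted p = 0.143). MKI67, which encodes the Ki-67 antigen, was at 120.3 and 114 TPM in Huh7, against 114 and 124 TPM in PLC/PRF/5. The transcription factor gene FOXM1 was at 127 and 118 TPM in Huh7, against 131 and 137 TPM in PLC/PRF/5. For both genes the arms lay close together, with opposite signs in the lines. MYBL2, the B-MYB gene, was at 212 and 267 TPM in Huh7, against 227 and 188 TPM in PLC/PRF/5. It was the 1 gene past the size rule upward in Huh7, and it was lower in PLC/PRF/5. With median-ratio scaling no gene was past that rule upward in Huh7. The mean log2 fold changes over the lines were then all below 0, at -0.74 (TOP2A), -0.12 (FOXM1), -0.078 (MKI67) and -0.064 (MYBL2).

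**Figure D2:**
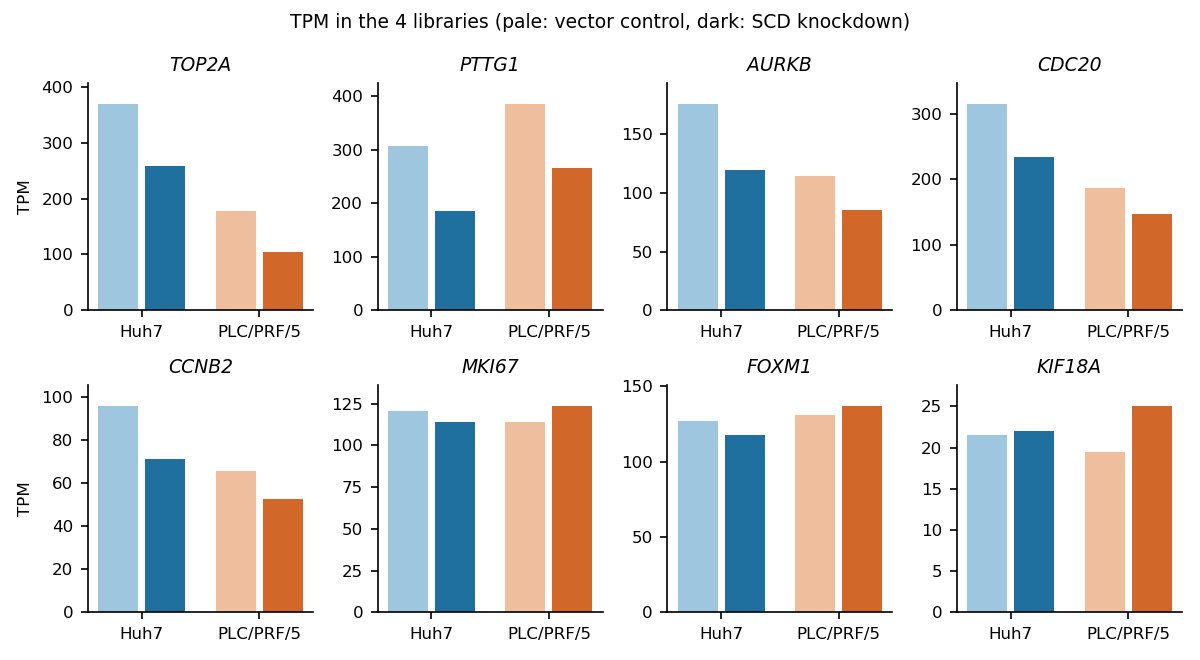
TPM (vertical axes, from 0) in the 4 libraries, Huh7 in blue and PLC/PRF/5 in orange, vector control pale and SCD knockdown dark, for 8 of the genes. TOP2A, PTTG1, AURKB, CDC20 and CCNB2 are lower in both knockdown libraries, while MKI67 and FOXM1 lie close to their controls and KIF18A is at 25.1 TPM in the PLC/PRF/5 knockdown against 19.4 TPM in its control.

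Mitotic cyclin genes were lower in both lines by similar amounts. CCNB2, cyclin B2, was at 95.7 and 71.2 TPM in Huh7, against 65.7 and 52.7 TPM in PLC/PRF/5, a mean log2 fold change of -0.37 (SE 0.10, limma adjusted p = 0.204). CCNA2, cyclin A2, was at 120.4 and 95.7 TPM in Huh7, against 134.5 and 114 TPM in PLC/PRF/5. CCNB1, cyclin B1, was at 219 and 189.9 TPM in Huh7, against 194 and 167 TPM in PLC/PRF/5. CCNF, whose protein is the substrate receptor of a ubiquitin ligase, was at 32.5 and 28.0 TPM in Huh7, against 40.2 and 34.4 TPM in PLC/PRF/5. CDK1, the kinase that cyclins A and B activate, was at 235 and 216 TPM in Huh7, against 165 and 139 TPM in PLC/PRF/5. The 4 cyclins and CDK1 made up the 5 of 7 genes of this group that were lower in both lines (22.4% of all genes). The phosphatase genes CDC25B and CDC25C, whose products remove the inhibitory phosphates from CDK1, differed in sign between the lines, at -0.08 and 0.09 and at -0.27 and 0.06.

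All 4 genes that work with the anaphase-promoting complex were lower in both lines (22.4% of all genes). The group had the lowest medians of the 10 roles, at -0.33 in Huh7 and -0.29 in PLC/PRF/5. PTTG1, securin, which blocks separase until anaphase, was at 307 and 185 TPM in Huh7, against 386 and 265 TPM in PLC/PRF/5. It was 1.65-fold and 1.45-fold lower, with a mean log2 fold change of -0.63 and a standard error of 0.09. Its near-identical copies PTTG2 and PTTG3P were listed at 0 in all libraries, and how reads that fit several of these copies were shared cannot be told from TPM, so the level of PTTG1 is uncertain to that extent. CDC20, the activator of the complex in metaphase, was at 315 and 233 TPM in Huh7, against 187 and 147 TPM in PLC/PRF/5 (mean log2 fold change -0.39, SE 0.08, limma adjusted p = 0.181). The genes of its ubiquitin-conjugating enzymes had smaller differences that were alike in the lines. UBE2C was at 460.3 and 407 TPM in Huh7, against 331 and 285 TPM in PLC/PRF/5. UBE2S was at 562.5 and 479 TPM in Huh7, against 532 and 453 TPM in PLC/PRF/5, a log2 fold change of -0.23 in each.

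The core subunits were divided in direction. Of 16 genes, the complex's subunits with its regulators FZR1 and FBXO5, 5 were lower in both lines and 6 higher in both (22.4% and 46.5% of all genes), with medians of 0.04 and -0.0022 beside 0.08 and 0.10 for all genes. With median-ratio scaling 7 were lower and 2 higher in both, with medians of -0.05 and -0.11. CDC26, a small scaffold subunit, had the lowest values (-0.77 and -0.52), and ANAPC15 and ANAPC1 were at -0.46 and -0.08 and at -0.29 and -0.24. CDC16 was higher in both (0.30 and 0.22). None of the 16 passed in limma, with 2 lower and 1 higher at an unadjusted p under 0.05 (5.24% and 12.7% of all genes), and 4 lower and 0 higher with median-ratio scaling.

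Each of the 5 genes for mitotic kinases and their activator was below its control in Huh7, and 3 were in PLC/PRF/5 (39.7% and 36.5% of all genes). PLK1, the polo-like kinase needed for mitotic entry and spindle assembly, was at 134 and 102 TPM in Huh7, against 144.5 and 131 TPM in PLC/PRF/5. NEK2, a centrosome kinase gene, was at 40.9 and 32.6 TPM in Huh7, against 76.1 and 74.8 TPM in PLC/PRF/5. AURKA, which drives centrosome maturation, was at 165 and 152 TPM in Huh7, against 336 and 286 TPM in PLC/PRF/5, so its larger difference was in PLC/PRF/5. TPX2, its spindle activator, had log2 fold changes of -0.11 and 0.00. PLK4, the kinase of centriole duplication, was at 27.3 and 24.4 TPM in Huh7, against 22.8 and 23.5 TPM in PLC/PRF/5. PLK1 was the 1 gene of these past the size rule on TPM as deposited, downward in Huh7 (11.7% of all genes). NEK7, a related kinase gene outside the 58, had larger differences, -1.20 and -1.29 (limma adjusted p = 0.129).

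Of 7 spindle checkpoint genes, 4 were lower in both lines, 1 was higher in both and 2 had opposite signs (22.4%, 46.5% and 31% of all genes). BUB1, a kinetochore kinase, was at 92.2 and 71.4 TPM in Huh7, against 91.9 and 80.5 TPM in PLC/PRF/5. MAD2L1, the MAD2 protein that binds CDC20, was at 157 and 126 TPM in Huh7, against 132 and 113 TPM in PLC/PRF/5. ZWINT, a kinetochore protein that recruits the ROD-ZW10-Zwilch complex, was at 149.7 and 132 TPM in Huh7, against 129 and 111 TPM in PLC/PRF/5. These genes were lower in both lines, as was BUB1B, the BUBR1 gene, with smaller values of -0.15 and -0.05. TTK, the MPS1 kinase gene, had values of -0.20 and 0.02, and BUB3 of 0.19 and -0.02. KNTC1, the ROD subunit, was at 21.1 and 21.2 TPM in Huh7, against 24.9 and 31.7 TPM in PLC/PRF/5, 1 of the 2 genes past the size rule upward there, the other being KIF18A.

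The chromosomal passenger complex corrects faulty attachments and later acts in cytokinesis. Its kinase gene AURKB was at 176 and 119.8 TPM in Huh7, against 114 and 85.7 TPM in PLC/PRF/5, a mean log2 fold change of -0.48 (SE 0.09, limma adjusted p = 0.166). BIRC5, survivin, was at 118 and 103 TPM in Huh7, against 129 and 103 TPM in PLC/PRF/5, and CDCA8, borealin, at 80.5 and 62.5 TPM and at 52.0 and 47.1 TPM. These 3 of the 4 genes were lower in both lines (22.4% of all genes). INCENP, the scaffold that joins them, was at 62.0 and 57.5 TPM in Huh7, against 56.0 and 56.6 TPM in PLC/PRF/5.

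The 6 centromere and kinetochore genes were all lower in Huh7 (39.7% of all genes), between -0.45 and -0.25. They were close to their controls in PLC/PRF/5 apart from SPC25. CENPF was at 67.6 and 49.2 TPM in Huh7, against 56.1 and 55.5 TPM in PLC/PRF/5. CENPE, a kinetochore motor, was at 31.7 and 23.7 TPM in Huh7, against 30.6 and 32.2 TPM in PLC/PRF/5. In these genes for large coiled-coil proteins the Huh7 log2 fold changes (-0.45 and -0.41) stood beside -0.01 and 0.07 in PLC/PRF/5 on TPM as deposited. Median-ratio scaling shifted the PLC/PRF/5 median of all genes by -0.10. The kinesin gene KIF2C had a like pair of values (-0.39 and -0.03). A difference between the lines cannot be tested with 1 library per group. CENPA, the histone H3 variant of centromeres, was at 26.6 and 21.7 TPM in Huh7, against 54.6 and 50.1 TPM in PLC/PRF/5. SPC25 was at 61.6 and 51.2 TPM in Huh7, against 54.0 and 43.5 TPM in PLC/PRF/5. Its partners in the NDC80 complex, which grips microtubules, had log2 fold changes of -0.25 and -0.04 (NDC80) and -0.25 and -0.06 (NUF2).

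Kinesin genes ranged from lower in both lines to higher in both. KIF15, a spindle motor, was at 34.3 and 25.1 TPM in Huh7, against 12.2 and 10.5 TPM in PLC/PRF/5. KIF2C, the microtubule-depolymerising MCAK, was at 100.3 and 76.0 TPM in Huh7, against 59.7 and 58.5 TPM in PLC/PRF/5, and KIF20A, a cytokinesis kinesin, at 63.2 and 50.8 TPM and at 50.6 and 48.3 TPM. KIF11, the Eg5 motor that pushes spindle poles apart, had log2 fold changes of -0.15 and -0.17. KIF15, KIF2C, KIF20A and KIF11 were the 4 of 8 that were lower in both lines (22.4% of all genes). KIF18A, which limits chromosome movement at metaphase, was at 21.5 and 22.0 TPM in Huh7, against 19.4 and 25.1 TPM in PLC/PRF/5. With KNTC1 and PRC1 it made up the 3 genes higher in both lines, none of which was with median-ratio scaling. KIF23, a subunit of centralspindlin, had values of 0.26 and -0.01, KIF4A of 0.05 and -0.08 and KIF20B of -0.33 and 0.01. KIF4B, a near-identical copy of KIF4A, was listed at 0.05 TPM or less in each library.

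On TPM as deposited, none of the 7 spindle and cytokinesis genes was past the size rule in either line. Of all genes, 11.7% were past it downward and 23.6% upward in Huh7, and 9.84% and 24.4% in PLC/PRF/5. With median-ratio scaling 3 of the 7 were past it downward in Huh7 and 1 in PLC/PRF/5 (15.8% and 14.9% of all genes). NUSAP1, a microtubule-bundling protein, was at 131 and 110.3 TPM in Huh7, against 121 and 97.3 TPM in PLC/PRF/5. HMMR was at 36.1 and 29.98 TPM in Huh7, against 75.4 and 69.0 TPM in PLC/PRF/5. DLGAP5, a spindle assembly factor, was at 86.3 and 70.6 TPM in Huh7, against 80.8 and 77.9 TPM in PLC/PRF/5. PRC1, which crosslinks the midzone microtubules, was at 147 and 158 TPM in Huh7, against 130.1 and 138 TPM in PLC/PRF/5. The genes that act on the contractile ring lay near their controls in Huh7: ANLN was at -0.10, RACGAP1 at -0.11 and ECT2 at -0.02. In PLC/PRF/5 they were at 0.05, -0.04 and 0.20.

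Condensin I folds mitotic chromosomes, and all of its genes were below their controls in both lines apart from SMC4 in PLC/PRF/5. Of 6 condensin and cohesion genes, 4 were lower in both lines and 2 had opposite signs (22.4% and 31% of all genes). NCAPD2 was at 140.3 and 104.5 TPM in Huh7, against 80.2 and 69.1 TPM in PLC/PRF/5 (mean log2 fold change -0.32, SE 0.10, limma adjusted p = 0.231). NCAPG was at 125.1 and 99.2 TPM in Huh7, against 69.3 and 62.9 TPM in PLC/PRF/5, and SMC2 at 48.2 and 38.6 TPM and at 56.4 and 50.3 TPM. SMC4, the ATPase that pairs with SMC2, was at 144 and 141 TPM in Huh7, against 63.9 and 76.3 TPM in PLC/PRF/5, where it was higher and SMC2 lower. NCAPH, the kleisin subunit, had values of -0.10 and -0.08, and the cohesion factor gene CDCA5, sororin, of 0.01 and -0.12.

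Across the 58 genes, the log2 fold changes of the lines were correlated at Pearson's r = 0.52 and Spearman's rho = 0.49, beside 0.41 and 0.45 across the 12064 genes considered in both lines. Without TOP2A and PTTG1, the lowest of the 58, r was 0.41. These are descriptions across genes, which are not independent replicates. The Huh7 difference was the lower of the pair in 41 of 58 genes, where it was in 54.7% of all genes, and the median gap was -0.14 on the log2 scale.

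**Figure D3:**
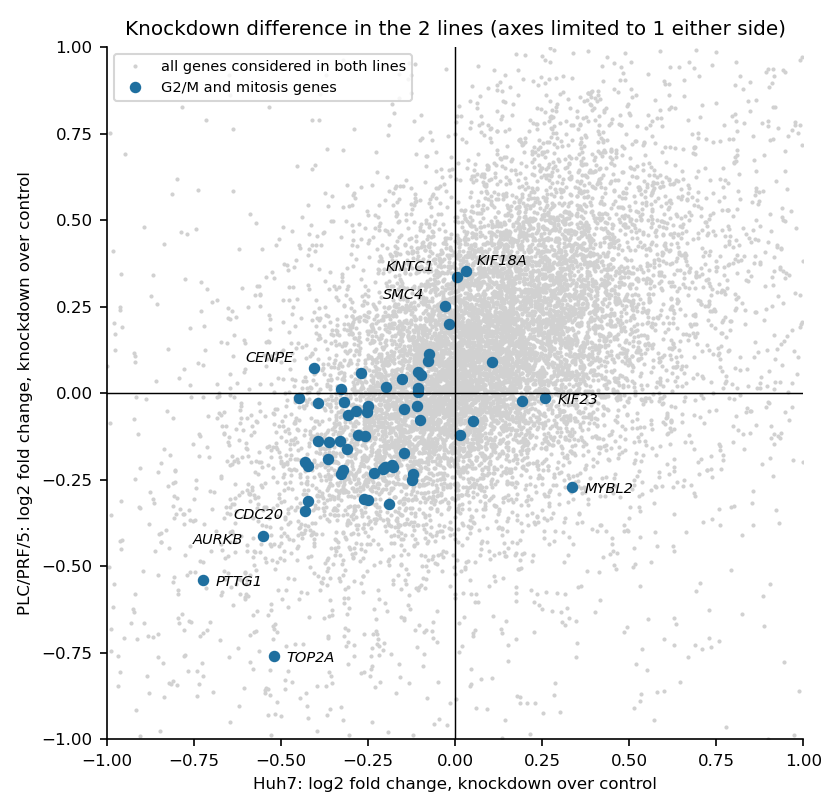
Log2 fold change of knockdown over control in Huh7 (horizontal axis) and PLC/PRF/5 (vertical axis), with the 58 genes in blue and all genes considered in both lines in grey, on axes that leave out 593 of them. TOP2A, PTTG1, AURKB and CDC20 lie farthest toward the lower left, and MYBL2, KIF18A and KNTC1 lie apart from the main group.

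Transcript length, examined after the values were seen, went with the difference in PLC/PRF/5. Lengths are those of the longest protein-coding transcript in GENCODE 29, known for all 58 genes. TPM by gene does not tell which transcript the cells used, so the expressed one may be shorter. In PLC/PRF/5, Spearman's rho between length and log2 fold change was 0.48 across the 58 genes, beside 0.13 across 11590 of all genes. Of the 29 genes shorter than 3358 bases, 28 were below 0 (median -0.21), and of the 29 longer or equal, 14 were (median 0.0038). In Huh7, rho was 0.18, beside 0.03 for all genes, and 27 of the shorter and 23 of the longer genes were below 0 (medians -0.26 and -0.15). MKI67 (0.11), CENPE (0.07), CENPF (-0.01), KNTC1 (0.34) and SMC4 (0.25) were among the longer genes in PLC/PRF/5. The 14 longer genes below 0 there included TOP2A, with a transcript of 5758 bases and the lowest value in PLC/PRF/5 (-0.76). Others of them were CCNF (-0.22), MAD2L1 (-0.22), NCAPD2 (-0.21) and KIF15 (-0.20). Over 62 other mitosis genes, of which 58 had a length, rho was 0.06 in Huh7 and 0.34 in PLC/PRF/5. Over 34 genes of G1/S and DNA replication, rho was 0.07 and 0.26, and in PLC/PRF/5 the shorter and the longer of them had alike medians (-0.17 and -0.18). The part of length in the result was not tested.

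**Figure D4:**
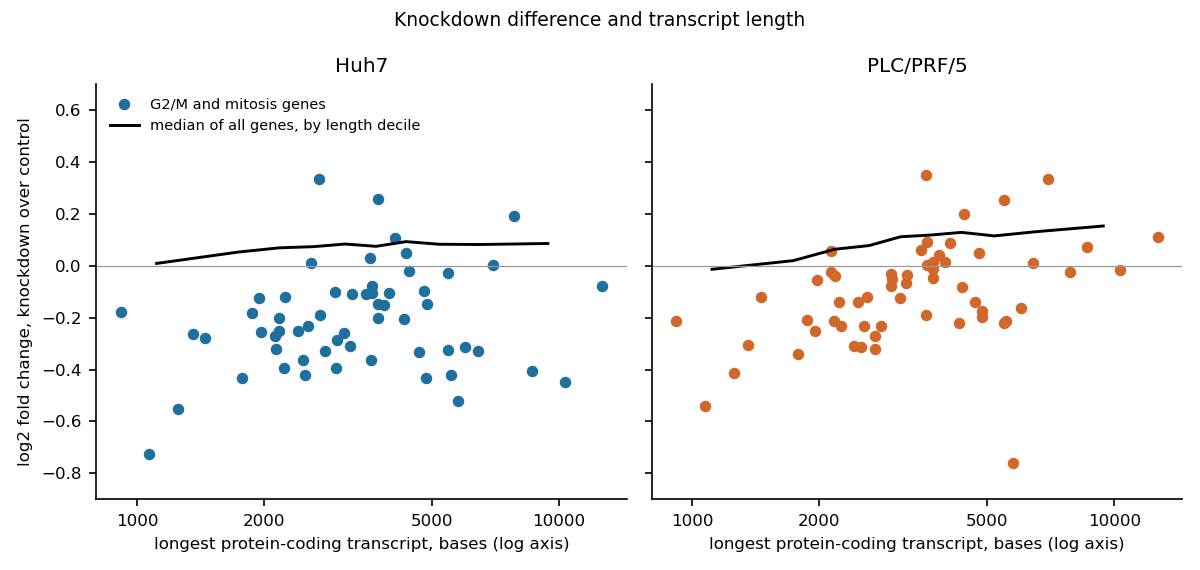
Log2 fold change of knockdown over control (vertical axes) against the length of the longest protein-coding transcript (horizontal axes, log scale) for the 58 genes in Huh7 and PLC/PRF/5, with the median of all genes in each length decile as a line. In PLC/PRF/5 the genes under 3358 bases have a median of -0.21 and the others of 0.0038, against -0.26 and -0.15 in Huh7.

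Of 62 further mitosis genes outside the 58, 48 were below 0 in Huh7 (39.7% of all genes), with a median of -0.11, and 29 in PLC/PRF/5 (36.5% of all genes), with a median of 0.02. Of the 62, 27 were lower in both and 12 higher in both, beside 22.4% and 46.5% of all genes. With median-ratio scaling 39 were lower and 8 higher in both, with medians of -0.19 and -0.08. None passed in limma, and at an unadjusted p under 0.05 10 were lower and 5 higher (5.24% and 12.7% of all genes), and with median-ratio scaling 17 and 3. MIS18A, which helps to load CENPA at centromeres, was lower in both lines (-0.58 and -0.80). WEE1, the kinase that restrains CDK1, was higher in both (0.66 and 0.41), as was the kinetochore gene CENPT (0.37 and 0.75).

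Among 12 genes that act on mitotic promoters (DREAM and MuvB subunits and CDKN1A), 3 were lower in both lines and 6 higher in both, shares near those of all genes (22.4% and 46.5%). Their medians were 0.18 and 0.08, beside 0.08 and 0.10 for all genes. With median-ratio scaling 4 were lower and 5 higher in both, and the medians were 0.10 and -0.02. LIN37 was at 0.39 and 0.40, LIN52 at -0.28 and -0.39, and E2F5 at -0.82 and -0.18. CDKN1A, the p21 inhibitor that acts upstream of DREAM, was at 3.57 and 5.93 TPM in Huh7, against 5.52 and 6.03 TPM in PLC/PRF/5. None of the 12 passed in limma. At an unadjusted p under 0.05, 1 was lower and 3 higher (5.24% and 12.7% of all genes), and with median-ratio scaling 2 were lower and 0 higher, so this balance turned with the scaling.

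Of 34 genes of G1/S and DNA replication, 23 were lower in both lines and 5 higher in both, beside 22.4% and 46.5% of all genes. Their Huh7 median was -0.15 and their PLC/PRF/5 median -0.17, beside 0.08 and 0.10 for all genes. With median-ratio scaling 26 were lower and 4 higher in both, with medians of -0.23 and -0.28. None passed in limma, with 7 lower and 1 higher at an unadjusted p under 0.05 (5.24% and 12.7% of all genes), and 15 lower and 1 higher with median-ratio scaling. The Huh7 difference was the lower of the pair in 17 of these 34, beside 41 of the 58 mitotic genes and 54.7% of all genes. E2F1 was at -1.02 and -0.96, MCM2, a helicase subunit, at -0.41 in Huh7 and -0.40 in PLC/PRF/5, and the cyclin E genes in opposite directions, CCNE1 at -0.47 and -0.28 and CCNE2 at 0.80 and 0.67. The gap between the mitotic and the replication genes was not tested.

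The lines had similar levels of most of the 58 genes. Control levels correlated at r = 0.88 across the 58 genes (log2 scale), beside 0.80 across all fitted genes. In the mean over control and knockdown, on the log2(TPM + 1) scale, 8 of 58 (13.8%) differed at least 2-fold between the lines, where 29.5% of all fitted genes did. In the cell line coefficient of the limma fit, 14 of the 58 passed as higher in Huh7 (background 28.3%) and 9 as higher in PLC/PRF/5 (background 31.5%). Those p-values rest on the agreement of the arms and, with more weight, on the trend over all genes, and hold no variation between cultures.

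By the same mean over both arms, KIF15 was 2.46-fold higher in Huh7 (limma adjusted p = 0.0021), TOP2A 2.25-fold, CDC25B 2.05-fold, SMC4 2.03-fold and NCAPG 1.68-fold. ECT2, the exchange factor that triggers the cleavage furrow, was 2.18-fold higher in PLC/PRF/5 (limma adjusted p = 0.0012), followed by HMMR at 2.16-fold, CENPA at 2.13-fold, NEK2 at 2.04-fold and AURKA at 1.95-fold. AURKA and AURKB, paralogous kinases, were ordered differently in the lines: in Huh7 controls AURKB was at 176 TPM and AURKA at 165 TPM, and in PLC/PRF/5 controls at 114 and 336 TPM. UBE2S had the highest control level of the 58 in both lines.

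**Figure D5:**
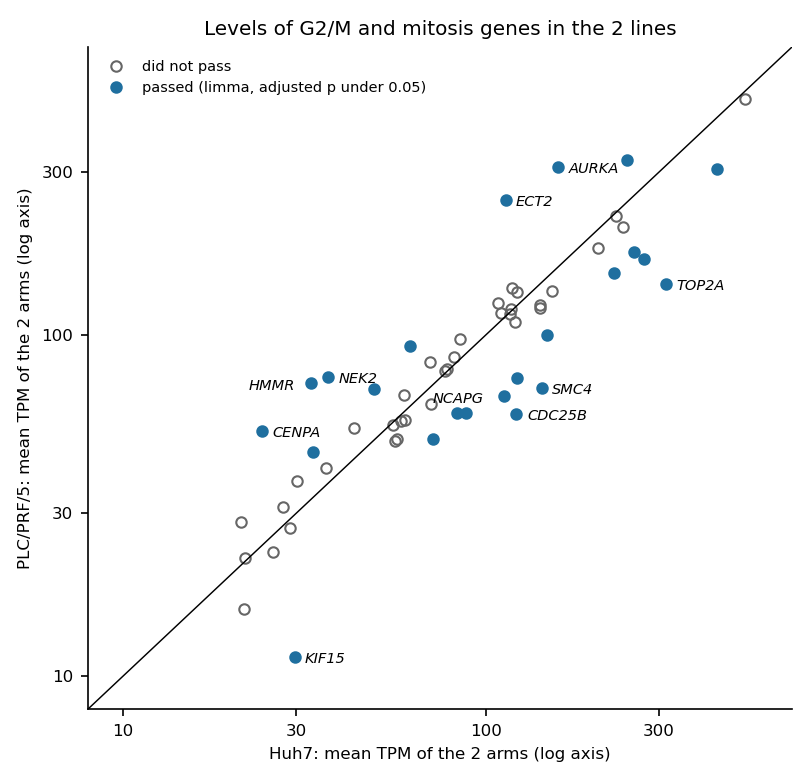
Mean TPM of the control and knockdown libraries in Huh7 (horizontal axis, log scale) and PLC/PRF/5 (vertical axis, log scale) for the 58 genes, with filled points for the 23 that passed the limma line comparison and a line of equality. KIF15 and TOP2A lie toward Huh7, and ECT2, HMMR and CENPA toward PLC/PRF/5.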

How the data were processed

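Per the labels' protocols, total RNA of the 4 cultures went to Illumina sequencing. The authors deposited 1 table per library with TPM by gene symbol, rounded to 2 decimals. Tools named in the submitters' processing notes are RSEM 1.2.21 and cutadapt, with hg19 as build. For aligner, annotation and strandedness: not given in the sources used here. Reads that fit several similar genes are shared among them by RSEM. TPM keeps no depth, so no counting interval was computed.

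Groups came from the sample labels. Within a line, genes that reached 1 TPM in either library were compared on log2(TPM + 1) by size alone. Across lines, limma 3.58.1 in R 4.3.3 was fitted to 13813 genes with at least 1 TPM in at least 2 libraries, with cell line as a block and an empirical Bayes trend (1 residual and 3.71 prior degrees of freedom). Tests were two-sided, and p-values were Benjamini-Hochberg adjusted (threshold 0.05). No label says whether the libraries are from separate experiments, so the spread may be technical. The fit was run on simulated data with the same noise for every gene and the same change in both lines. Those settings differ from these data, so that run does not show how well the fit works here.

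The members, lists and tests were chosen with earlier results of these data known. By rule, values in all libraries are given for up to 4 genes per role with the largest mean difference and for those past the size rule in both lines, and each companion list is shown by up to 4 genes. Others named, and CDK1 with its TPM values, were chosen after their values were seen, as were the scaling of the companion lists and role groups and the length relation. Promoters are from RefSeq (GRCh38.p14) and lengths from GENCODE 29, matched by symbol and used apart from the authors' hg19 coordinates. Protein sequences were not used here. Alternatives were pseudocounts of 0.1 and 5, a TPM minimum of 5 or none, median-ratio scaling, and fits without the variance trend, the line term or the arm term.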

Additional observations from a re-analysis of the deposited data

Results flagged for a closer look

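In 3 genes that were past the size rule of 0.32 on the log2 scale in 1 line, the other line had the opposite sign. Of all genes, 31% had opposite signs at any size, beside 18 of the 58, or 9 with median-ratio scaling. The share of all genes that met both conditions is not given here, so the 3 cannot be called few or many. The difference between the lines was not tested, since each group has 1 library. For MYBL2 the log2 fold change was 0.34 (Huh7) and -0.27 (PLC/PRF/5), a gap of -0.61 (PLC/PRF/5 minus Huh7). CENPE had -0.41 and 0.07, a gap of 0.48. KIF20B had -0.33 and 0.01, a gap of 0.34, and its PLC/PRF/5 value is close to 0. With median-ratio scaling MYBL2 was not past the rule upward in Huh7. That scaling shifted the PLC/PRF/5 median of all genes by -0.10, further than the PLC/PRF/5 values of CENPE and KIF20B lie from 0.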

How the results depend on the processing

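Median-ratio scaling had the widest effect. Genes past the size rule downward went from 17 to 28 (Huh7) and from 4 to 17 (PLC/PRF/5), and those past it upward from 1 to 0 (Huh7) and from 2 to 0 (PLC/PRF/5). It took those higher in both lines from 3 to 0, those with opposite signs from 18 to 9, the PLC/PRF/5 median from -0.10 to -0.21 and the 13 at an unadjusted p under 0.05 to 25. It reversed the mean log2 fold change of MKI67 from 0.02 to -0.078 and of MYBL2 from 0.03 to -0.064. The 13 became 5 without the variance trend and 0 without the cell line term, which leaves the line difference in the residual. With a pseudocount of 5, the 2 higher genes in PLC/PRF/5 became 0. Over all genes, the 1 call lower became 0 with a pseudocount of 5, without a filter, without the variance trend and without the cell line term, and a pseudocount of 0.1 gave 1 call higher in place of 0. None of the 58 passed the adjusted threshold in limma under any of these settings. For the line comparison, 11 to 19 of the 58 were higher in Huh7 and 7 to 9 higher in PLC/PRF/5 over the alternatives. The cause of these shifts was not tested. Depth is unknown, so counting error could not be set beside these differences.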
